A study of Mus musculus with 4 samples.

Results

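Expression of the collagen genes was examined in reconstituted ovaries (rOvaries) of mice that did or did not receive INK128, an inhibitor of both mTOR complexes. The members were all gene symbols of the count table made of Col, a number, the letter a and a number, which gave 44 of 54021 symbols. Col4a3bp, whose symbol goes on after that pattern and whose product is a ceramide transfer protein, was left out. By the kind of structure their proteins form, 11 are fibrillar collagens, 8 are basement membrane collagens and 25 are other collagens. The rOvaries had been made by aggregating primordial germ cells and somatic cells of fetal gonads at embryonic day E12.5 and placing the aggregates under the kidney capsule of ovariectomized G2 Terc-/- females, second-generation telomerase-deficient mice on a C57BL/6 background that were 2 to 3 months old. Donor embryos came from C57BL/6 females crossed with actin-GFP males. The INK128 group received the drug in the drinking water, at 0.75 uM per g of body weight by the labels, the control group did not, and both were collected 1 month after transplantation. The study's methods state the dose in another way, as a concentration of the water with an approximate daily amount per body weight, and which holds for these mice was not settled. There were 2 libraries per group, named by the labels INK128 replicates 1 and 2 and control replicates 1 and 3. The labels do not say that these came from separate animals, so the p-values measure only the spread between these libraries. A graft taken from a kidney can carry some kidney tissue, and host cells can enter it.

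Collagens are matrix proteins whose chains carry glycine in each Gly-X-Y step and wind around each other into a triple helix. Fibrillar collagens such as types I and III form the banded fibres of the ovarian stroma, and type IV forms the sheet-like networks of basement membranes around follicles, vessels and tubules. Type VI forms beaded filaments between cells and fibres, and fibril-associated collagens such as types XII, XIV and XVI attach to the surface of fibres.

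The exon structure that goes with this repeat is shown first, because it shows this repeat in the genes themselves. Reads had been assigned to RefGene models, so the GENCODE M21 exons and exon lengths used here need not be those that were counted. In the GENCODE M21 models on mm10, 48.6% of the inner coding exons of the fibrillar collagens were 54 bases long, against 4.43% in the basement membrane class, 15.9% in the other collagens and 0.733% over all protein-coding genes. Each of the exons below encodes 6 glycine steps, is printed 5′ to 3′ along the transcript and has in capitals the glycine codon that opens each step. Col1a1, Col1a2 and Col3a1 are shown because they hold most of the collagen reads, Col14a1 because it was the only 1 to pass the main test, and Col6a5 because its log2 fold change was farthest from 0.
Col1a1 (chr11:94939904-94939957, plus strand): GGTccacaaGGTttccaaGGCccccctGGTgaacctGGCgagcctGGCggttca
Col1a2 (chr6:4515481-4515534, plus strand): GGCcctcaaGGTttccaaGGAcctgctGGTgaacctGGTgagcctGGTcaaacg
Col3a1 (chr1:45325360-45325413, plus strand): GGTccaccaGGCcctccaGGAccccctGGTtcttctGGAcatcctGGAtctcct
Col14a1 (chr15:55467960-55468013, plus strand): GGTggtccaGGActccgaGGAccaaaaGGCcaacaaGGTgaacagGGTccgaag
Col6a5 (chr9:105918186-105918239, minus strand): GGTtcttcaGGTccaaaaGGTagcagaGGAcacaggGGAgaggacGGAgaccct
Each was chosen as the first in-frame inner coding exon of 54 bases in its gene that opens every step with a glycine codon. That they share this pattern was therefore fixed by the choice.

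The libraries held between 19130209 and 23029089 counts. Levels are given as CPM, the usual scaling of counts to the size of a library, here after TMM normalization, and a floor of 3 counts was worth 0.127 to 0.161 CPM, for counting error only. Granulosa and oocyte markers were present, but the oocyte markers together reached only 21.8 CPM in control replicate 3, against 713 to 967 CPM in the other libraries. Counts of 4 Y-linked genes summed to 1021 in control replicate 1 and to at most 2 elsewhere, whereas the study's methods describe female gonads. The controls were also far apart in the collagens. They differed by more than 2-fold in 13 of the 28 collagen genes with a mean CPM above 10 (46.4%, against 13.8% of all 11758 genes at that level), whereas the INK128 libraries differed by more than 2-fold in 0 of the 28 (1% of all genes). The plot of INK128 against each control library gives every tested member without 1 control.

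Collagen genes together took 1.72% and 1.48% of all counts in the INK128 libraries and 1.46% and 1.63% in the controls, so the groups overlapped. Col1a1, Col1a2 and Col3a1, the chains of types I and III, made up 54.4% to 62.3% of the collagen counts of a library. The 16 members with a mean CPM of 10 or less made up 0.273% to 0.313%. Divided by exon length, the mean over the 4 libraries was 424 CPM per kb for Col1a1, 325 for Col3a1 and 261 for Col1a2, followed by Col6a1 (230 CPM per kb), Col4a1 (150 CPM per kb) and Col6a2 (111 CPM per kb). The order depended on the length used. The merged exons of Col1a2 span 12426 bases and its longest transcript 5348, and by longest transcript Col1a2 led with 607 CPM per kb, before Col3a1 (574 CPM per kb) and Col1a1 (469 CPM per kb). Col6a2 (189 CPM per kb) then stood before Col4a1 (169 CPM per kb).

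**Figure D1:**
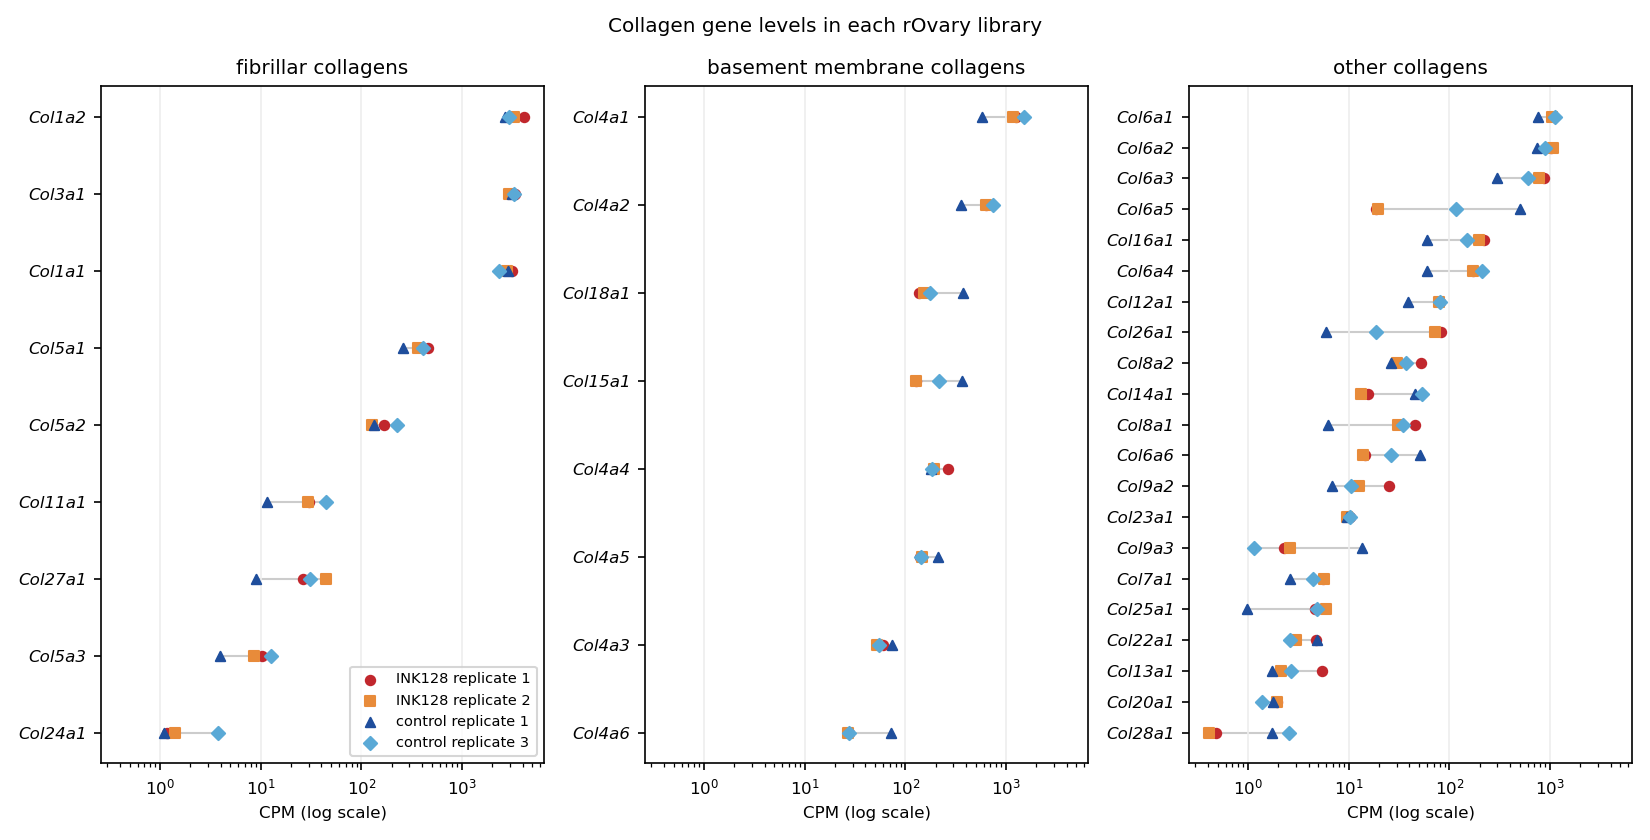
CPM on a log axis for the 38 collagen genes with a mean CPM above 1, 1 point per library and a grey line over the range of the 4 libraries, ordered by mean within each class. Col1a1, Col1a2 and Col3a1 lie between 2331 and 4112 CPM, and among them only Col1a2 has both INK128 libraries above both controls. Col6a5, Col26a1 and Col14a1 show both INK128 libraries apart from both controls.

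Of the 28 collagen genes tested, Col14a1 was the only 1 called, and it fell. Called means an adjusted p below 0.05 in edgeR's quasi-likelihood test, adjusted by Benjamini-Hochberg over all 11758 genes, and a change of more than 1.5-fold. This gave 0 collagen genes called higher (3.18% of all tested genes were) and 1 called lower (3.19% were), so 1 in either direction (6.37% were), with 5 at an unadjusted p below 0.05 (36.4% were). DESeq2 called 1 higher, Col26a1 (13.6% of all tested genes were), and 4 lower, Col14a1, Col6a5, Col15a1 and Col6a6 (15.1% were), which is 5 in either direction (28.6% were). limma voom called 0 collagen genes and 0 of all genes. Both INK128 libraries lay above both controls in 7 of the 28 (34.5% of all tested genes), below both in 5 (34%), and so apart in 12 (68.5%), and the groups overlapped in 16. The fitted log2 fold change was positive in 18 and negative in 10, with a median of 0.22 beside -0.03 over all tested genes. The shares of collagen genes apart, called higher, or called in either direction were below these all-gene shares. The 1 of 28 called lower by edgeR was near 3.19%, and the 4 of 28 called lower by DESeq2 were near 15.1%. In whole tissue, fewer cells of a type and less RNA per cell cannot be told apart.

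**Figure D2:**
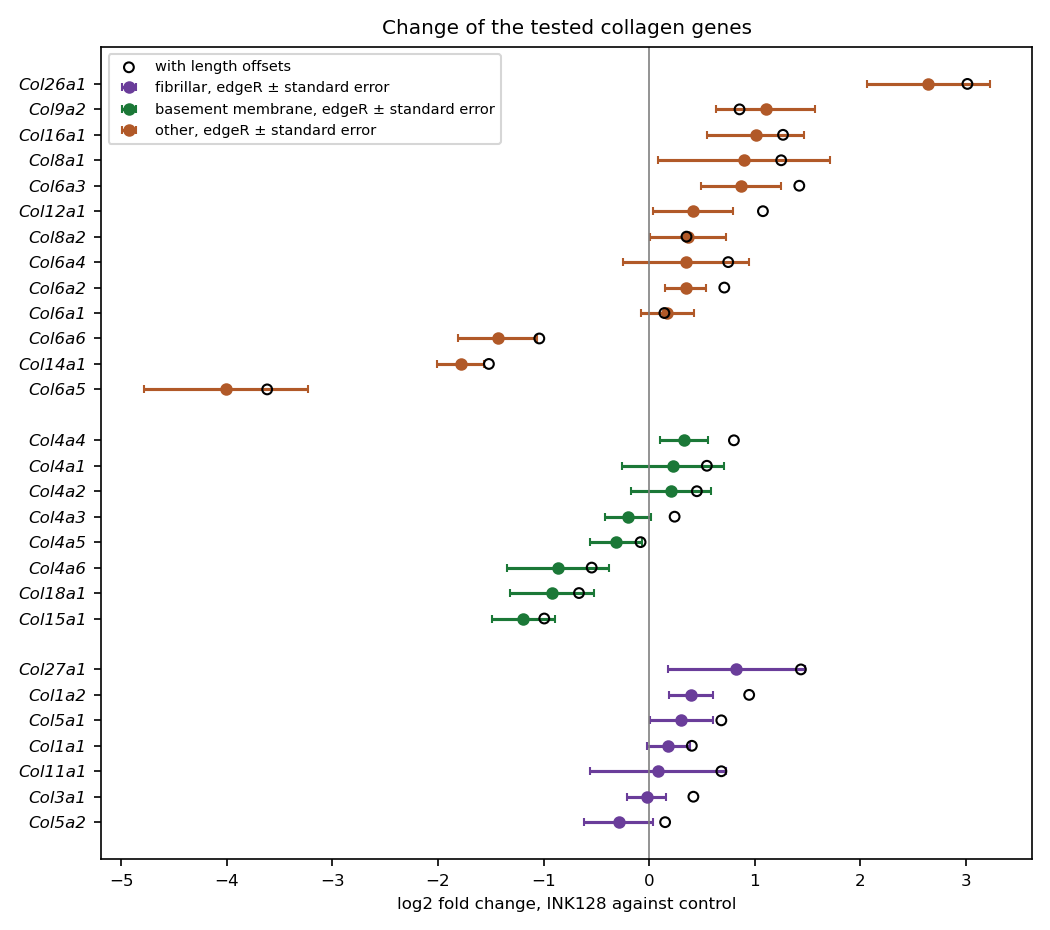
Log2 fold change of INK128 against control for the 28 tested collagen genes by class, with filled points for edgeR, bars for its standard error and open circles for the fit with length offsets. Col6a5 at -4.01 and Col26a1 at 2.64 lie farthest from 0, and the open circles lie to the right of the filled points in most genes.

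In the fibrillar class no gene was called, and of the abundant types I and III only Col1a2 had groups that did not overlap. None of the 7 tested was called by edgeR or DESeq2, 0 had an unadjusted p below 0.05, and the median log2 fold change was 0.18, within a range of -0.29 to 0.83. With the length offsets described below, all 7 were positive, with a median of 0.68 and 0 called. Col1a1, the main chain of type I, was at 3112 and 2796 CPM with INK128 and at 2881 and 2331 CPM in controls. These values overlap, at a log2 fold change of 0.18 with a standard error of 0.20, and edgeR gave an adjusted p of 0.543. Col1a2, the other chain of type I, was at 4112 and 3271 CPM against 2669 and 2932 CPM. It was the only fibrillar gene tested whose groups did not overlap, at 0.40 ± 0.21 on the log2 scale, here and below with the standard error (adjusted p = 0.230, edgeR). Col3a1, the chain of type III in stroma and vessel walls, was at 3389 and 2947 CPM against 3156 and 3279 CPM, at -0.02 ± 0.18 on the log2 scale (adjusted p = 0.938, edgeR). The sign turned with upper-quartile scaling, wider filters and length offsets.

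The minor fibrillar genes followed the spread of the controls. Col5a1, a type V chain that limits the width of fibres, was at 464 and 364 CPM with INK128 and at 258 and 413 CPM in controls (log2 fold change 0.30; 0.00411 without control replicate 1 and 0.69 without control replicate 3). Col5a2, its partner, was at 167 and 127 CPM against 132 and 226 CPM (-0.29; -0.63 and 0.15 without each control). Col11a1, the type XI chain best known from cartilage, was at 30.1 and 29.7 CPM against 11.6 and 44.7 CPM, so the controls enclosed both INK128 libraries. Its log2 fold change of 0.09 became -0.58 without control replicate 1 and 1.36 without control replicate 3. Col27a1, a fibrillar chain of cartilage and other tissues, was at 26.4 and 44.7 CPM against 9.03 and 31.1 CPM. Its log2 fold change of 0.83 was 0.20 without control replicate 1 and 1.98 without control replicate 3 (adjusted p = 0.000623, edgeR). In all 4 of these genes the groups overlapped, and adjusted p-values ranged from 0.397 to 0.932 (edgeR).

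Among the basement membrane collagens, Col15a1, Col18a1 and Col4a6 had the lowest log2 fold changes and Col4a4 the highest. The median log2 fold change of the 8 genes was -0.26, and 0.08 with the length offsets described below. In this class edgeR called 0, DESeq2 called 1 lower, and 1 had an unadjusted p below 0.05. That gene was Col15a1, which links basement membranes to the fibres beneath them. It was at 127.2 and 128.4 CPM with INK128 and at 366 and 218 CPM in controls, 2.28-fold lower, with no overlap, and it lay at -1.19 ± 0.30 on the log2 scale (adjusted p = 0.0694, edgeR; 0.00242, DESeq2). Without control replicate 1 its log2 fold change was -0.77, and without control replicate 3 it was -1.52. Col18a1, the related proteoglycan whose end fragment is endostatin, was at 138 and 153 CPM against 374 and 177 CPM. The groups did not overlap, but control replicate 3 was close to the INK128 libraries, and the log2 fold change of -0.92 ± 0.39 (adjusted p = 0.169, edgeR) was -0.28 without control replicate 1 and -1.36 without control replicate 3 (adjusted p = 0.000182, edgeR), which was a call.

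Col4a1 and Col4a2, the chains of the type IV network found in nearly all basement membranes, were spread by the controls. Col4a1 was at 1248 and 1167 CPM with INK128 and at 572 and 1494 CPM in controls, and Col4a2 at 635 and 639 CPM against 359 and 744 CPM. Both INK128 libraries thus lay between the controls in each gene, and the log2 fold changes of 0.23 and 0.21 had adjusted p-values of 0.750 and 0.711 (edgeR). Without control replicate 1 they were -0.31 and -0.22, and without control replicate 3 they were 1.08 and 0.83.

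Col4a3, Col4a4 and Col4a5 form the network of the glomerular basement membrane in the kidney. Col4a3 was at 59.5 and 52.5 CPM against 73.6 and 55.0 CPM (log2 fold change -0.20; 0.03 without control replicate 1 and -0.39 without control replicate 3). Col4a4 was at 265 and 191 CPM against 180 and 183 CPM, both INK128 libraries above both controls (0.33; 0.06 without INK128 replicate 1 and 0.53 without INK128 replicate 2). Col4a5 was at 141 and 145 CPM against 213 and 143 CPM (-0.32). Its value was -0.00227 without control replicate 1 and -0.57 without control replicate 3, where the adjusted p was 0.0241 (edgeR) and the change stayed under 1.5-fold. Col4a6, which pairs with Col4a5 in smooth muscle and Bowman's capsule, was at 27.8 and 26.8 CPM against 71.7 and 27.6 CPM, so control replicate 1 alone was high (-0.86, -0.02 without that library and -1.39 without control replicate 3). Adjusted p-values of these 4 genes ranged from 0.258 to 0.535 (edgeR). Col4a3 shares 563 exonic bases, 5.65% of its exon length, with a gene on the opposite strand, and counting by strand is not stated, so reads there are uncertain.

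The largest differences were among the other collagens, where 13 genes were tested and the median log2 fold change was 0.37. Col14a1 (chr15:55307750-55520803, mm10) encodes a fibril-associated collagen of dense connective tissue. It was at 15.6 and 13.3 CPM with INK128 and at 46.0 and 53.9 CPM in controls, a 3.45-fold fall with both groups tight. Its log2 fold change was -1.79 ± 0.22 (adjusted p = 0.0464, edgeR; 4.2e-08, DESeq2). It stayed between -1.92 and -1.67 when any 1 library was left out. The call was lost without either INK128 library, and so were all other calls of the table. The adjusted p of 0.0464 is the smallest of all 11758 genes, and all calls lay between 0.0464 and 0.0499.

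The type VI chains had log2 fold changes on both sides of 0, and edgeR called none of the 6. Col6a1, Col6a2 and Col6a3 encode the chains of the usual filament. Col6a1 was at 1095 and 1039 CPM with INK128 against 766 and 1130 CPM (log2 fold change 0.17), and Col6a2 at 1015 and 1060 CPM against 739 and 893 CPM (0.35). Col6a3, the long chain that decides filament assembly, was at 875 and 772 CPM against 300 and 602 CPM. Both INK128 libraries were higher, at 0.87 ± 0.38 on the log2 scale (adjusted p = 0.171, edgeR), and the value was 0.45 without control replicate 1 and 1.46 without control replicate 3.

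Col6a4, Col6a5 and Col6a6 encode chains that can take the place of Col6a3, and they lie beside each other on chromosome 9. Col6a4 was at 173 and 170 CPM against 59.7 and 209 CPM, within the spread of the controls (0.35; -0.29 without control replicate 1 and 1.52 without control replicate 3). Col6a5 (chr9:105856078-105960643, mm10) was at 18.6 and 19.8 CPM with INK128 and at 502 and 116 CPM in controls. Both controls were far above both INK128 libraries but 4.33-fold apart, and the log2 fold change of -4.01 ± 0.78 had an adjusted p of 0.0516 in edgeR and 2.91e-08 in DESeq2. It was -2.59 without control replicate 1 and -4.71 without control replicate 3. Col6a6 was at 14.6 and 14.0 CPM against 51.0 and 26.4 CPM, again with no overlap, at -1.43 ± 0.37 (adjusted p = 0.0742, edgeR; 0.0076, DESeq2). Neighbouring genes therefore had log2 fold changes of 0.35, -4.01 and -1.43.

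Among the remaining fibril-associated collagens, Col16a1 was at 221 and 198 CPM with INK128 and at 59.8 and 148 CPM in controls, with no overlap, at 1.01 ± 0.46 on the log2 scale (adjusted p = 0.188, edgeR). Without control replicate 1 this was 0.50, and without control replicate 3 it was 1.81 (adjusted p = 6.0e-05, edgeR). Col9a2, a type IX chain best known from cartilage, was at 25.0 and 12.6 CPM against 6.77 and 10.7 CPM (1.10 ± 0.47, adjusted p = 0.166, edgeR), and leaving out each library gave 0.51 to 1.51. Col12a1, which lies on type I fibres under load, was at 80.8 and 79.4 CPM against 38.9 and 80.9 CPM. Only control replicate 1 stood apart there (0.42, -0.01 without it and 1.04 without control replicate 3).

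Col8a1 and Col8a2 encode the short-chain network collagen of vessel walls and the cornea. Col8a1 was at 45.6 and 30.9 CPM against 6.29 and 34.8 CPM. The fitted 0.89 on the log2 scale was 0.13 without control replicate 1 and 2.60 without control replicate 3. Col8a2 was at 52.5 and 30.0 CPM against 26.5 and 37.5 CPM (0.37). Col26a1 (chr5:136741759-136883209, mm10), a collagen with an EMI domain, was at 82.0 and 72.2 CPM with INK128 and at 5.98 and 18.7 CPM in controls. All INK128 values were above the controls, 6.24-fold in the fit, and the log2 fold change of 2.64 ± 0.58 had an adjusted p of 0.0589 in edgeR and 1.0e-04 in DESeq2. It was 2.04 without control replicate 1 and 3.69 without control replicate 3.

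A further 10 members had a mean CPM between 1 and 10 and entered the wider fit of all 17631 genes above a mean CPM of 1. edgeR called 0 of the 10 (0% of those genes), DESeq2 called 0 (23.8%), and 1 had an unadjusted p below 0.05 (32.9%). Both INK128 libraries lay above both controls in 2 of the 10 (30.9%) and below both in 1 (35.3%). The gene with the low p was Col28a1, a von Willebrand domain collagen known from nerve, with 9 and 9 counts with INK128 against 39 and 60 counts in controls. That is 0.483 and 0.414 CPM against 1.73 and 2.53 CPM, at -2.18 ± 0.63 on the log2 scale (adjusted p = 0.0958, edgeR; 0.0954, DESeq2). It was -2.43 without control replicate 1 and -1.88 without control replicate 3. Col9a3, another type IX chain, was at 2.31 and 2.62 CPM against 13.5 and 1.14 CPM, so its fitted -1.51 turned to 1.16 without control replicate 1. Its exons share 6.07% of their length with Tcfl5 on the opposite strand.

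The groups overlapped in the other 8 except in Col7a1 and Col20a1, which had both INK128 libraries above both controls. The 8 had fitted log2 fold changes from -0.84 for Col24a1 to 0.92 for Col25a1. Col24a1 (fibrillar) was at 1.18 and 1.43 CPM with INK128 against 1.11 and 3.75 CPM, and Col25a1, a transmembrane collagen of neurons, at 4.62 and 5.93 CPM against 0.974 and 4.81 CPM. Col5a3 (0.23), Col23a1 (0.07), Col22a1 (0.12) and Col13a1 (0.83) had overlapping groups. Col7a1, the anchoring fibril collagen under epithelia, was at 5.53 and 5.75 CPM against 2.61 and 4.47 CPM (0.72), and Col20a1 at 1.93 and 1.93 CPM against 1.77 and 1.39 CPM (0.34). Adjusted p-values of these 8 ranged from 0.314 to 0.886 (edgeR). The last 6 members, Col11a2, Col2a1, Col17a1, Col10a1, Col19a1 and Col9a1, had 0 to 25 counts in a library and were not tested. Col2a1 and Col10a1, the defining collagens of cartilage, had 0 to 5 counts.

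Control replicate 1 was at an end of the range in most of these genes. It was the lowest library in 17 of the 28 tested collagen genes (27% of all tested genes) and the highest in 7 (25.8%). In the other class it was lowest in 10 of 13 and among the fibrillar genes in 4 of 7. In the basement membrane class it was lowest in 3 of 8 and highest in 5, namely Col4a3, Col4a5, Col4a6, Col15a1 and Col18a1. The difference between classes was not tested. Without control replicate 1, 1 collagen gene was called higher and 5 lower (edgeR), and without control replicate 3, 12 were called higher and 6 lower. In those fits 5387 and 5011 of all 11758 genes were called, and the lone control was assumed to vary like the INK128 libraries. Of these 28, those that kept their direction and differed by more than 2-fold against each control alone were Col14a1, Col6a5 and Col26a1. Leaving out each library in turn gave 0.04 to 0.34 for Col1a1, 0.21 to 0.55 for Col1a2, 0.22 to 0.49 for Col6a2 and -1.83 to -0.88 for Col6a6, and in the wider fit 0.39 to 1.16 for Col7a1, 0.18 to 0.52 for Col20a1 and 0.19 to 2.49 for Col25a1.

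**Figure D3:**
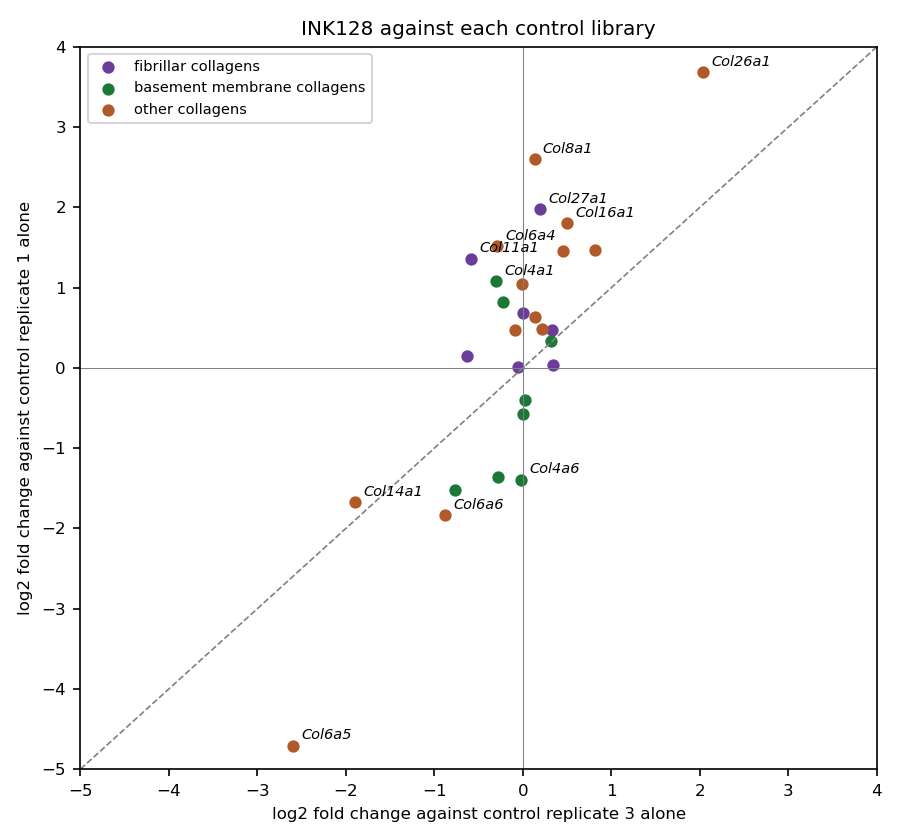
Log2 fold change of the 28 tested collagen genes from the 2 INK128 libraries against control replicate 3 alone (x axis) and against control replicate 1 alone (y axis), coloured by class, with a dashed line of equal values. Col14a1 lies near the line at -1.90 and -1.67, Col6a5 at -2.59 and -4.71, and many other genes lie off the line, near 0 against control replicate 3.

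Transcript length was looked at because long genes tended to be lower with INK128 across the whole table. Over 11700 tested genes with a known exon length, the log2 fold change fell with length (Spearman's rho = -0.46, across genes, which share the same 4 libraries). The median went from 0.74 in the shortest decile of genes to -0.65 in the longest. Collagen transcripts are long, with a median of 8251 bases of merged exon, from 3095 for Col9a2 to 15228 for Col12a1, and 26 of the 28 were longer than the median of 4468 bases. Across the 28 genes rho was 0.08, over a narrow range of lengths in which 25 genes fall in the longest 3 deciles, and the difference from the value over all genes was not tested. The 8 collagen genes in decile 8 had a median of -0.07 beside -0.32 for all genes of that length, the 11 in decile 9 had -0.02 beside -0.43, and the 6 in decile 10 had 0.41 beside -0.65. The median over all 28, 0.22, was -0.00844 without control replicate 1.

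With offsets that level this trend in each library, edgeR called 0 of the 28 collagen genes (0% of all genes), and 10 had an unadjusted p below 0.05 (26.6% of all genes). The median log2 fold change of the collagen genes was then 0.50, with 21 of 28 positive, beside -0.04 over all genes. By class it was 0.68 for the fibrillar, 0.08 for the basement membrane and 0.75 for the other collagens. Col1a2 moved to 0.95 (adjusted p = 0.0932, edgeR) and Col3a1 to 0.42, whereas Col14a1 at -1.52 (adjusted p = 0.0750, edgeR), Col6a5 at -3.62 and Col26a1 at 3.01 kept their direction.

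**Figure D4:**
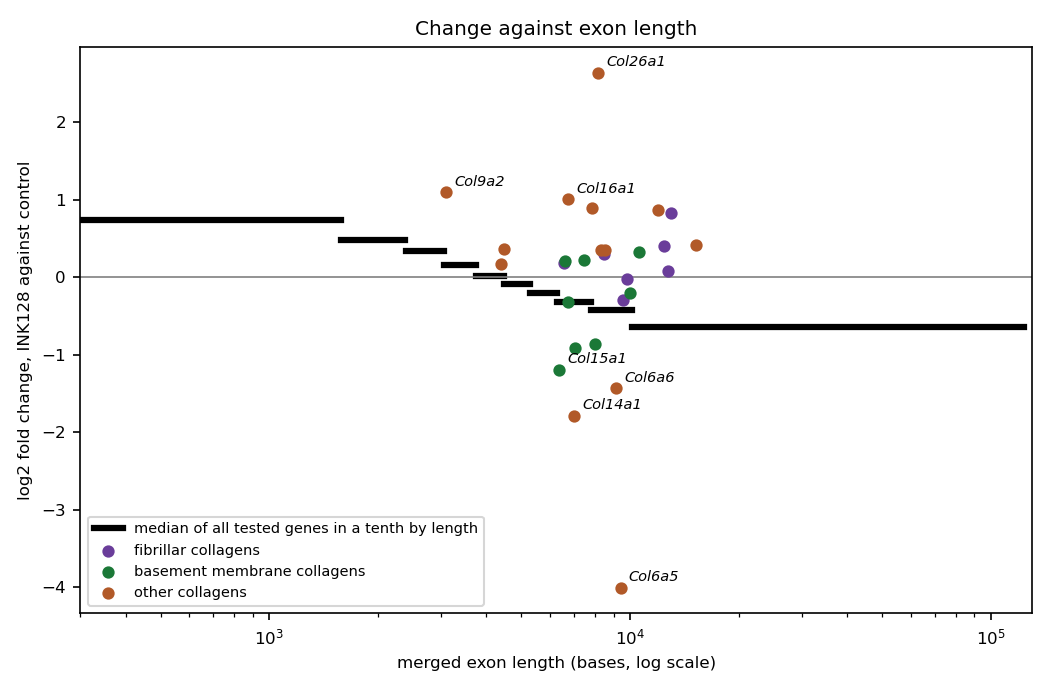
Log2 fold change of INK128 against control by merged exon length on a log axis, with black bars for the median of all tested genes in each decile by length and points for the 28 collagen genes by class. The bars fall from 0.74 to -0.65, while most collagen points lie above the bar of their own length.

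Ratios between chains that assemble into 1 protein do not depend on library scaling, and they were computed per kb of exon in each library. The ratio of Col5a1 to Col5a2 was 3.15 and 3.25 with INK128 and 2.20 and 2.06 in controls, higher in both INK128 libraries. Col4a4 to Col4a5 was 1.18 and 0.836 against 0.535 and 0.808, also higher, but by little against control replicate 3. Col4a3 to Col4a4 was 0.239 and 0.292 against 0.435 and 0.320, lower in both. The ratios of Col1a1 to Col1a2 (1.43 and 1.62 against 2.04 and 1.51), Col4a1 to Col4a2 (1.74 and 1.62 against 1.41 and 1.78) and Col6a1 to Col6a2 (2.05 and 1.86 against 1.97 and 2.41) overlapped. The choice of length scales a ratio alike in every library, so it moves the level and not the order of the libraries. By longest transcript Col1a1 to Col1a2 was below 1 in every library, at 0.683 and 0.771 against 0.973 and 0.717, and Col6a1 to Col6a2 was 1.29 and 1.17 against 1.24 and 1.52. With 2 libraries per group an exact permutation test cannot give a two-sided p below 0.333, so none was run on these ratios.

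The type IV genes sit in head-to-head pairs. Col4a1 and Col4a2 overlap by 22 bases on chromosome 8, Col4a3 and Col4a4 have 71 bases between them on chromosome 1, and Col4a5 and Col4a6 are 1308 bases apart on the X chromosome. The stretch between Col4a4 and Col4a3 is shown because both partners start from it, and the stretch before Col6a5 because that gene had the lowest log2 fold change. Both come from RefSeq sequence of GRCm38.p6, along the strand of Col4a4 or Col6a5, with motif letters in capitals.
Col4a4 to Col4a3 (chr1:82586850-82586920, minus strand): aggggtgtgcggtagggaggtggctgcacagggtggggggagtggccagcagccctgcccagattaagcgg
Col6a5 upstream (chr9:105960644-105960893, minus strand): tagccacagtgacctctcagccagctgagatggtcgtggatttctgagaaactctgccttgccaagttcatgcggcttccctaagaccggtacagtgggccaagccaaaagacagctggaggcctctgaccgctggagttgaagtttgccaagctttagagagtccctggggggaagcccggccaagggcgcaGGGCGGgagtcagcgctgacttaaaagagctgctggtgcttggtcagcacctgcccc
Motifs searched on both strands were the TATA box, spelled TATAAA, the box spelled CCAAT, and the GC box, spelled GGGCGG. Only the GC box was found before Col6a5, 57 bases from the start, and none of the 3 was found in the 71 bases, where GC content was 69.0%. In windows of that length at all gene starts, 20.7% held the GC box. Among 38 windows of 250 bases before the starts of 35 collagen genes, 57.9% held the GC box, 34.2% the CCAAT box and 13.2% the TATA box. The shares over all 32851 windows of 250 bases were 32.7%, 33.9% and 12.4%. Such a match describes letters and not a site in use.

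Genes acting on collagen were counted from written lists of enzymes, chaperones, receptors and binding proteins. Tested here means a mean CPM above 10, and list members between 1 and 10 come from the wider fit, where edgeR called 0 of all 17631 genes and DESeq2 called 23.8%. Of the 19 tested genes for folding and modification, edgeR called 1 higher, Crtap (3.18% of all tested genes were), and 0 lower (3.19%), and 9 had an unadjusted p below 0.05 (36.4%). DESeq2 called 6 higher (13.6%) and 1 lower (15.1%). These all-gene shares stand beside each list that follows. The median log2 fold change was 0.42, and 0.23 with length offsets. Crtap, a partner of the prolyl 3-hydroxylase complex, rose from 109 and 111 CPM in controls to 205 and 233 CPM with INK128 (log2 fold change 0.99, adjusted p = 0.0488, edgeR). Its exons span 1772 bases, and with length offsets the value was 0.41 (adjusted p = 0.214, edgeR). Ppib, the cyclophilin of the same complex, was at 476 and 509 CPM against 240 and 267 CPM (0.96, adjusted p = 0.0507, edgeR), with 25.0% of its exon length shared with Snx22 on the opposite strand. Serpinh1, the collagen chaperone also called Hsp47, was at 1705 and 2488 CPM against 1026 and 934 CPM, the largest fitted rise of the list (1.10, adjusted p = 0.0616, edgeR). P3h2, a prolyl 3-hydroxylase of type IV collagen, had the largest fitted fall (-1.16, adjusted p = 0.0890, edgeR), with 28.4% of its exon length shared with an antisense gene. In this list both INK128 libraries were above both controls in 11 of 19 genes, beside 34.5% of all tested genes.

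Of the 7 tested genes for processing and cross-linking, 1 was called higher by edgeR, Loxl1, and 2 by DESeq2, with 0 called lower by either and 4 at an unadjusted p below 0.05. Loxl1, an oxidase that cross-links elastin and collagen, was at 230 and 243 CPM with INK128 and at 97.1 and 114 CPM in controls (1.16, adjusted p = 0.0464, edgeR). Lox, the related oxidase, had the largest fitted fall of the 7, with 57.7 and 43.0 CPM against 73.6 and 89.7 CPM (-0.70, adjusted p = 0.110, edgeR). The median of these 7 was 0.68, and 0.79 with length offsets. In the wider fit Tll1, a protease related to Bmp1, was at 1.61 and 0.874 CPM against 3.72 and 7.51 CPM (-2.12, adjusted p = 0.1001, edgeR) and was called lower by DESeq2 (adjusted p = 0.0336). Loxl4 was at -1.70, Adamts3 at -1.27 and Adamts14 at 0.32, with 0 of these 3 called by either tool. Over all 13 genes of the list, tested or not, both INK128 libraries lay above both controls in 6 and below both in 7. The shares over all tested genes were 34.5% and 34%. The 13 include Tll2 (5 and 9 counts with INK128 against 11 and 61) and Pcolce2 (3 and 5 against 23 and 9), which were too low to test.

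Of the 9 tested genes for degradation, edgeR called 1 higher and 1 lower, and DESeq2 called 3 higher and 1 lower. Mmp2, a protease of denatured and type IV collagen, rose to 514 and 456 CPM from 218 and 244 CPM in controls (1.07, adjusted p = 0.0487, edgeR). Timp3, a matrix-bound inhibitor of such proteases, fell to 123 and 127 CPM from 326 and 534 CPM (-1.78, adjusted p = 0.0480, edgeR). Of its exon length 21.3% is shared with Syn3 on the opposite strand, so part of these reads is uncertain. Mrc2, a receptor that takes up collagen fragments, had the largest fitted rise (1.15, adjusted p = 0.102, edgeR). The median of these 9 was 0.30, and -0.23 with length offsets. In the wider fit Timp4 was at 0.215 and 0.368 CPM against 0.443 and 4.51 CPM, so control replicate 3 alone was high (-3.00, adjusted p = 0.180, edgeR; 0.108, DESeq2), with 1.53% of its exon length shared with Syn2 on the opposite strand.

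**Figure D5:**
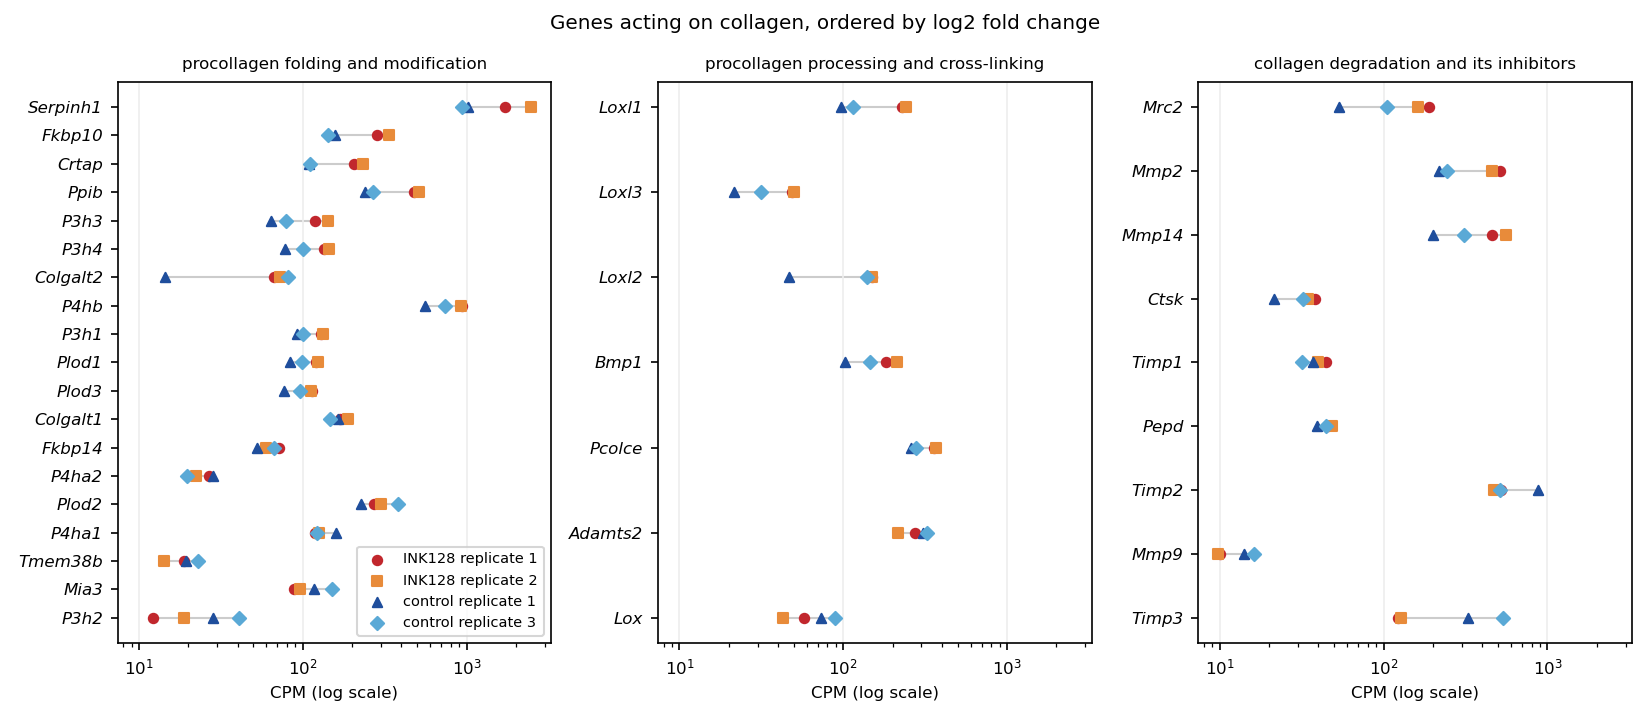
CPM on a log axis, 1 point per library, for the tested genes of the folding, processing and degradation lists, ordered by log2 fold change from the lowest at the bottom. Crtap, Loxl1 and Mmp2 show both INK128 libraries above both controls, and Timp3 shows both below.

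The 6 tested collagen receptors had a median of -0.69, and of -0.23 with length offsets. Of these edgeR called 0, 0 had an unadjusted p below 0.05, and DESeq2 called 1 lower. That gene was Ddr1, a receptor kinase for basement membrane collagen, at 63.9 and 62.9 CPM with INK128 and at 486 and 83.4 CPM in controls (-2.17, adjusted p = 0.144, edgeR), the largest fitted fall; 4.52% of its exon length is shared with an antisense gene. Itga11, an integrin chain for type I collagen, had the highest value of the 6 at 0.05. In the wider fit Lair1, an inhibitory collagen receptor of immune cells, was at 3.22 and 2.39 CPM against 7.70 and 10.5 CPM (-1.65, adjusted p = 0.0770, edgeR), and DESeq2 called it lower (adjusted p = 0.0151). Itga10, another integrin chain, was at 0.69 there (adjusted p = 0.396, edgeR), with 33.5% of its exon length shared with another gene on the same strand. Of the 12 collagen-binding matrix proteins, 2 were called lower by edgeR and 0 higher, 4 had an unadjusted p below 0.05, and DESeq2 called 2 higher and 2 lower. Their median was 0.12, and 0.33 with length offsets. Prelp, an anchor between basement membrane and collagen, fell to 27.3 and 29.7 CPM from 134 and 80.8 CPM (-1.91, adjusted p = 0.0464, edgeR), with 9.68% of its exon length shared with an antisense gene. Tnxb, a tenascin that spaces collagen fibres, fell to 43.2 and 38.8 CPM from 80.2 and 98.4 CPM (-1.12, adjusted p = 0.0487, edgeR), and was at -0.58 with length offsets. Lum, a fibril-binding proteoglycan, had the largest fitted rise (1.23, adjusted p = 0.0730, edgeR).

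Markers of other cell types also moved between the groups, and their part in the collagen values was not tested. All 8 smooth muscle and myofibroblast markers had both INK128 libraries above both controls (34.5% of all tested genes did) and summed to 5879 and 6002 CPM against 956 and 1980 CPM. Tagln held 1432 and 1528 CPM of these sums against 158 and 426 CPM. It shares 62.4% of its exon length with an antisense gene, so part of its reads is uncertain. DESeq2 called all 8 higher, and all 8 had an unadjusted p below 0.05 in edgeR. Of these edgeR called Acta2, the actin of smooth muscle, which had the largest log2 fold change (2.43), and Cnn1 (2.38), and Des had the smallest (0.76). All 10 kidney tubule markers were lower in both INK128 libraries (34% of all tested genes were), with a sum of 63.7 and 162 CPM against 581 and 1351 CPM. Of the 9 tested, edgeR called Slc34a1 (-4.67), Lrp2 (-4.37), Cubn (-4.35) and Slc22a6 (-4.11), and the values ran from -6.08 for Umod to -1.30 for Aqp2. DESeq2 called 8 of the 9 lower, and 8 had an unadjusted p below 0.05 in edgeR.

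The 8 fibroblast and stromal markers summed to 4535 and 4317 CPM against 3098 and 3125 CPM. Both INK128 libraries were above both controls in 5 (34.5% of all tested genes), 3 had an unadjusted p below 0.05, edgeR called Nr2f2 higher (1.05), DESeq2 called 3 higher, and the values ran from -0.01 for Dpt to 1.55 for Tcf21. The endothelial markers summed to 485 and 530 CPM against 560 and 728 CPM, with Kdr called lower (-1.54) among 8 by edgeR and 1 by DESeq2, and Esam the highest (0.76). The podocyte markers summed to 322 and 366 CPM against 589 and 419 CPM. Of these 0 of the 4 tested were called by edgeR, with 1 at an unadjusted p below 0.05 and 1 called lower by DESeq2, and Podxl had the lowest value (-2.14). Of the cartilage and bone markers 2 of 10 were high enough to test, Comp (-2.94) and Cnmd (0.63), Bglap was at 0 in every library, and the sum was 130 and 135 CPM against 109 and 110 CPM. Comp was at 2.36 and 4.32 CPM with INK128 and at 0.885 and 50.7 CPM in controls, so control replicate 3 alone was high. The 8 granulosa markers summed to 5677 and 7339 CPM against 3120 and 3994 CPM. Most of each sum was Inha, at 4067 and 5893 CPM against 1680 and 2858 CPM. The values ran from -1.06 for Amh to 1.13 for Inha, and among the 6 tested oocyte markers from 0.41 for Bmp15 to 1.45 for Gdf9. In these lists edgeR called 0, and 1 granulosa and 0 oocyte markers had an unadjusted p below 0.05. DESeq2 called 1 granulosa marker higher and 0 oocyte markers. Control replicates 1 and 3 were far apart in Amh (435 and 5.10 CPM, against 131 and 80.1 CPM with INK128). They were also far apart in Bmp15 (99.7 and 3.92 CPM, against 79.8 and 57.4 CPM) and Gdf9 (256 and 7.13 CPM, against 454 and 264 CPM).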

How the data were processed

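The series holds RNA-seq of 2 INK128 and 2 control rOvaries. According to the study's methods and the submitters' processing notes, the authors removed adapters and low-quality bases (Trimmomatic), mapped the reads to mm10 (HISAT2) and assigned them to genes of RefGene (featureCounts); tool versions are not given in the sources used here. They deposited raw counts per gene symbol, without normalization or pooling. From these counts, genes with a mean CPM above 10 were kept (11758), scaled with TMM and compared with edgeR 4.0.16 (quasi-likelihood, R 4.3.3, adjusted p below 0.05 and fold change above 1.5). Members and listed genes below that were tested with a mean CPM above 1. The standard error is the log2 fold change divided by the root of its F statistic. Alternatives were DESeq2 1.42.0 (the test the study used), limma voom 3.58.1, other normalizations and filters, lowess offsets for exon length and GC content (span 0.3), and each library left out. Scripts were tested on simulated data. Exon lengths and positions came from GENCODE M21, not from RefGene, and promoters from RefSeq.

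The members, classes and lists were chosen with earlier results of these data known. Every member with a mean CPM above 1 is named, and from the other lists the called genes and the largest rise and fall, to which Ppib and genes of the wider fit were added after their values were seen; 1 marker gene is not reported here. All 4 columns of the count table were matched to libraries by name.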

Additional observations from a re-analysis of the deposited data

How the results depend on the processing

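Under relative log expression size factors, TMM without the collagen genes and no fold change limit, the counts of collagen genes called stayed at 0 higher and 1 lower. Over the whole table these fits called 738, 749 and 749 of 11758 genes. DESeq2, DESeq2 with a mean CPM above 1, at least 1 count, and an adjusted p below 0.1 each gave 1 higher and 4 lower. CPM above 10 in all 4 libraries gave 0 higher and 3 lower. In the same order, these fits called 3367 of 11758, 4193 of 17631, 3105 of 31483, 3131 of 11758 and 1520 of 10040 genes over the whole table. The call of Col14a1 was lost, leaving 0 collagen genes called, with limma voom, a mean CPM above 1, length offsets and GC offsets; with voom, the filter and both offsets the number of all genes called was also 0, and their counts at an unadjusted p below 0.05 were 3979, 5797, 3133 and 4132. Fits without 1 library are not counted here, because the lone library of a group was assumed to vary like the other group. Their log2 fold changes are given below. An adjusted p below 0.1 called 1 member with a mean CPM between 1 and 10. Among the genes acting on collagen, 3 were called higher and 3 lower. These counts were 13 and 5 with DESeq2, 13 and 7 with DESeq2 at a mean CPM above 1, and 0 and 0 with voom, a mean CPM above 1, length offsets and GC offsets. Upper quartile called 963 and library totals called 870 of 11758 genes over the whole table, and the whole-table numbers of the other fits stand above. Of the genes acting on collagen, 5 were called higher with upper quartile and 1 with library totals. It was 6 with CPM above 10 in all 4 libraries, 11 with at least 1 count and 12 with an adjusted p below 0.1. Leaving out each library gave 0 to 21 higher and 0 to 10 lower.

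Length offsets moved the median log2 fold change from 0.22 to 0.50 over all collagen genes, from 0.18 to 0.68 in the fibrillar class and from -0.26 to 0.0795 in the basement membrane class. Over the fits without 1 library the median ranged from -0.00844 to 0.48 over all collagen genes, from 0.00411 to 0.47 in the fibrillar and from 0.13 to 1.04 in the other class, each highest without control replicate 3, and from -0.48 to -0.12 in the basement membrane class, lowest without control replicate 3. The cause was not tested.

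Values near 0 changed sign, and none of these passed a threshold. Col3a1 turned to 0.0399 with upper quartile, 0.0312 with a mean CPM above 1, 0.0192 with at least 1 count, 0.0238 with DESeq2 at a mean CPM above 1, and 0.42 with length offsets. Length offsets also turned Col5a2 to 0.15 and Col4a3 to 0.24. GC offsets turned Col6a1 (-0.0481), Col1a1 (-0.0765), Col4a1 (-0.0247), Col4a2 (-0.13), Col5a3 (-0.0313) and Col23a1 (-0.0645). Library totals, which moved the median of the 11758 genes from -0.03 to -0.15, turned Col11a1 (-0.0331), still above that median, and in the wider fit Col23a1 (-0.10) and Col22a1 (-0.0479).

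Over the fits without 1 library the log2 fold changes that changed sign ranged from -0.10 to 0.71 for Col8a2, -0.0217 to 1.35 for Col13a1, -0.00313 to 0.12 for Col23a1, -0.26 to 0.63 for Col22a1, -0.14 to 0.0663 for Col3a1, -0.0833 to 0.48 for Col6a1, -0.58 to 1.36 for Col11a1, -0.31 to 1.08 for Col4a1, -0.22 to 0.83 for Col4a2, -0.0146 to 1.04 for Col12a1, -0.29 to 1.52 for Col6a4, -0.39 to 0.026 for Col4a3, -0.38 to 1.30 for Col5a3, -2.39 to 1.16 for Col9a3, -0.63 to 0.15 for Col5a2 and -1.47 to 0.29 for Col24a1. In each such fit the lone library of a group was assumed to vary like the other group. No paired analysis was possible because the groups share only replicate number 1. The 6 members with a mean CPM below 1 were left out of the tests by that filter.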
